A study of Mus musculus with 8 samples.

Results

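Heat shock proteins and co-chaperones are described here in mouse brain tissue bordering a surgical cavity in the motor cortex. They were taken by symbol: Hspa, Hspb, Hspd, Hspe, Hsph and Hsp90 genes, J-domain genes (Dnaja, Dnajb and Dnajc), Bag1 to Bag6, the heat shock factors Hsf1 and Hsf2, and subunits 2 to 8 of the cytosolic chaperonin CCT. The choice rested on symbols and not on measured values. It gave 83 of the 17644 genes in the table, of which 77 had enough reads to be tested. Expression was measured by CAGE, a method that sequences and counts the capped 5' ends of transcripts. Levels are given as CPM, tags scaled to a common library total, and are not divided by gene length because each transcript yields a tag from its start only.

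Both groups were male C57BL/6NCrSlc mice, 11 weeks old at surgery, in which cortex was aspirated through a craniotomy to a depth of 1 mm. In the 1-week group (4 libraries) the brain was taken 1 week after that surgery. In the no-delay group (4 libraries) it was taken straight after the surgery, so these animals carry the fresh lesion too and are not uninjured controls. Tissue within 1.0 mm of the cavity was used whole, with no sorting of cells. The libraries held 8278855 to 13998941 reads, and those of each group are lettered W to Z by the alphabetical order of the 6-base tags in their column names. Values of a group are given in that order, and a letter shared by both groups marks a shared tag, not a pair of animals.

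Heat shock proteins are molecular chaperones that bind unfolded or client proteins and help them to fold, to stay soluble or to be degraded. HSP70 proteins bind and release clients in a cycle driven by ATP. J-domain proteins (the HSP40 family) bring clients to HSP70 and start ATP hydrolysis, while BAG proteins and HSP110 proteins act as nucleotide exchange factors that let the client go. HSP90 acts later on signalling proteins, small heat shock proteins hold unfolded proteins without ATP, and the ring-shaped chaperonins enclose them. When proteins unfold, the transcription factor HSF1 trimerises and binds heat shock elements, arrays of the unit GAA in alternating orientation, in the promoters of inducible members. Other members are made at all times or are specific to a cell type or compartment.

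Of the 77 members tested, 6 were higher at 1 week, 10 were lower and 61 did not pass the test (limma with a variance trend on log2(CPM + 1), Benjamini-Hochberg adjusted p under 0.05 over all 14718 genes tested). The 16 called members are 20.8% of those tested, against 36.8% of all genes tested. Members called higher made up 7.79%, against 23.4% of all genes, and members called lower made up 13%, against 13.4%. The count of lower members depends on how libraries are scaled. With TMM it was 20 (26.0% of the members, against 17.6% of all genes), with the median of ratios 21 (27.3%, against 18.5%), with edgeR 19 (24.7%, against 17.4%) and with DESeq2 21 (27.3%, against 18.8%). In both directions together these settings called 32.5%, 33.8%, 31.2% and 33.8% of the members, against 37.5%, 38.0%, 37.3% and 37.8% of all genes, so the gap to all genes was smaller than with CPM as deposited and the share of lower calls was above that of all genes. In the same order, the share of higher genes among all called genes was 53.1%, 51.4%, 53.2% and 50.3%, against 63.6% with CPM as deposited and 43.4% with quantile normalization. Quantile normalization went the other way for the members, with 10.4% called lower, against 21.8% of all genes. In both directions together it called 18.2% of the members, against 38.6% of all genes. The counts by family given below stand against the shares of all genes called higher (23.4%) and lower (13.4%).

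Most members differed little between the groups. The median log2 fold change (1 week over no delay) was 0.00 over the members and 0.06 over all genes tested, and the median absolute value was 0.12 over the members and 0.21 over all genes. An absolute log2 fold change under 0.2 was found for 52 members (67.5%), against 49.1% of all genes. A change of 1 or more was found for 3 members (3.90%), against 6.75% of all genes. The libraries of the groups did not overlap for 14 of the 77 members tested, against 34.7% of all genes. Of these members 6 lay above and 8 below the no-delay range, beside 3345 above and 1763 below among all 14718 genes tested. Together the 83 members took 1.03% to 1.13% of all CPM in the 1-week libraries and 1.07% to 1.12% in the no-delay libraries.

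**Figure D1:**
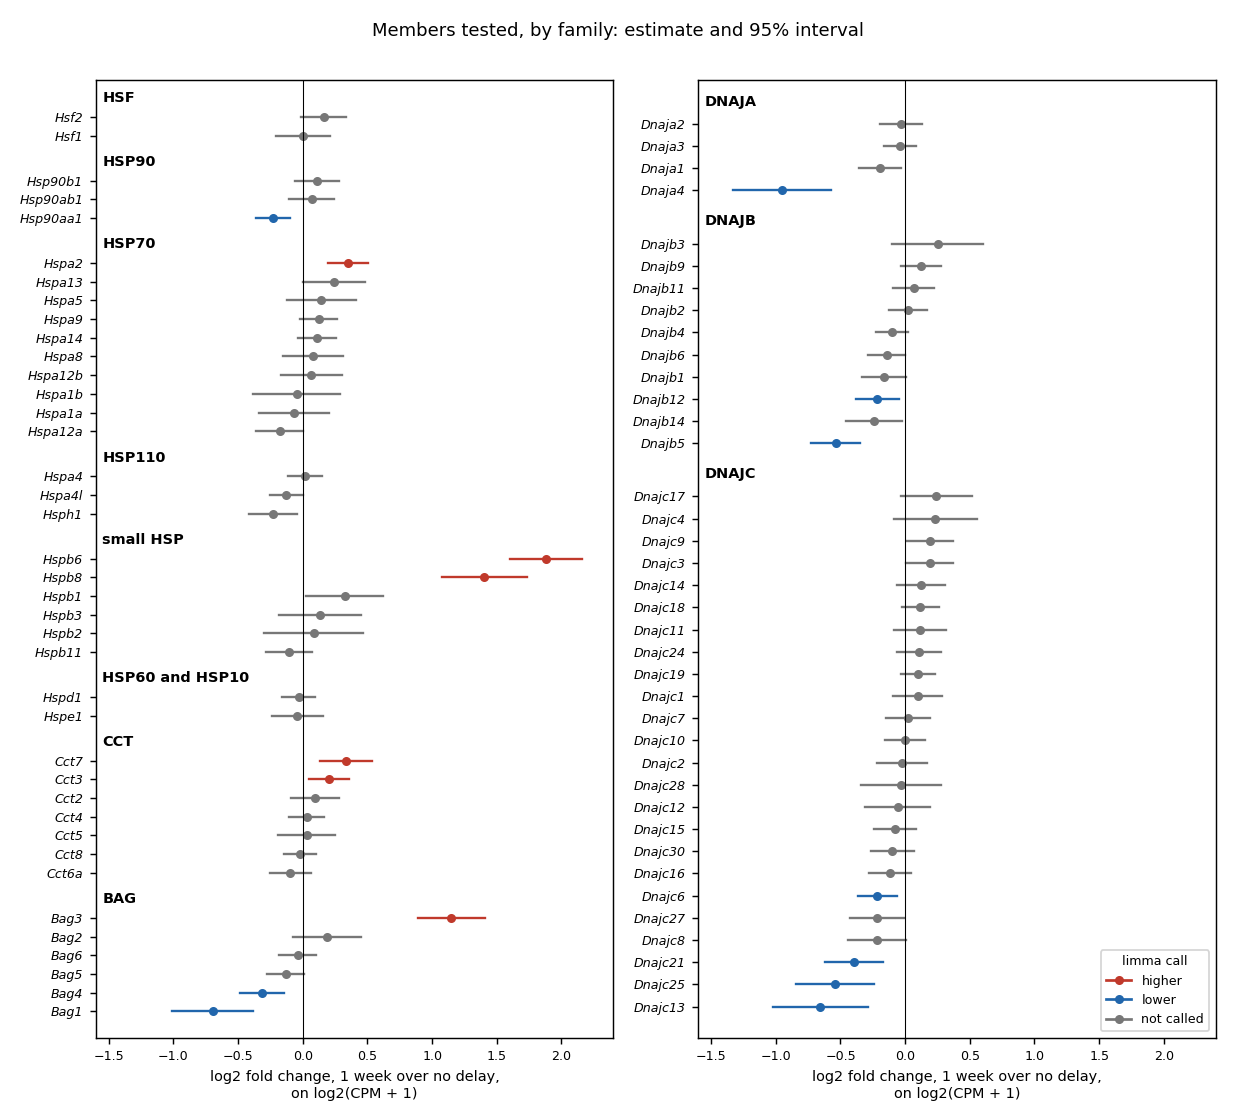
Log2 fold change (1 week over no delay, on log2(CPM + 1)) of the 77 tested members, grouped by family, with the limma estimate as a point and its 95% interval as a bar. Hspb6, Hspb8 and Bag3 lie at 1 or more on the right, Dnaja4, Bag1 and Dnajc13 lie furthest left, and most other members lie within 0.2 of 0.

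**Figure D2:**
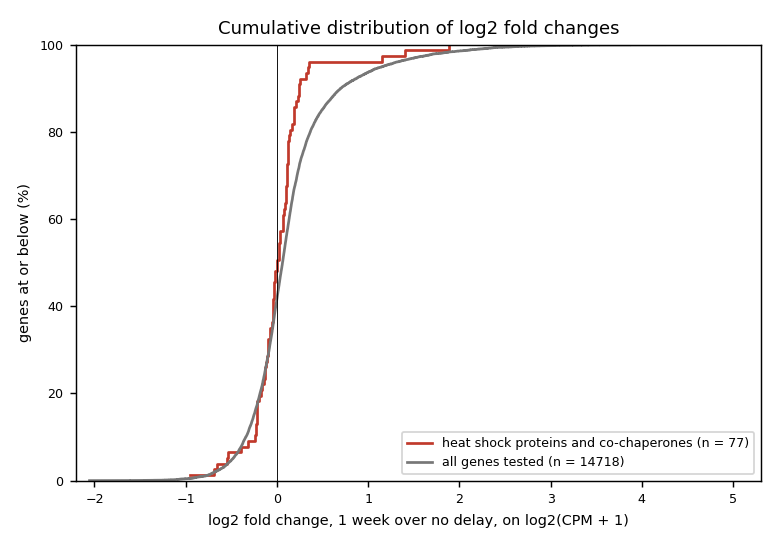
Cumulative share (%) of the 77 tested members and of all 14718 genes tested at or below each log2 fold change (1 week over no delay). The curve of the members is steeper around 0, and 3 members (3.90%) have an absolute change of 1 or more, against 6.75% of all genes.

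The 3 members with the largest differences were a pair of small heat shock proteins and a BAG protein. Hspb6 (also called Hsp20), a small heat shock protein known from muscle and also made in brain, had 10.5, 10.7, 10.6 and 7.98 CPM at 1 week, against 1.84, 1.92, 2.18 and 1.88 CPM without delay. All 1-week libraries were above all no-delay libraries, the means differed 5.09-fold, and the log2 fold change was 1.88 (SE 0.13, limma adjusted p = 4.8e-07). Hspb8, a small heat shock protein that binds BAG3, had 26.0, 41.2, 31.4 and 29.3 CPM at 1 week, against 12.4, 9.51, 14.2 and 9.69 CPM without delay. The groups again did not overlap, with means 2.80-fold apart (log2 fold change 1.40, SE 0.15, limma adjusted p = 1.8e-05). Bag3, which links HSP70 and HSPB8 to the autophagy of misfolded proteins and is itself a known target of HSF1, had 11.5, 11.9, 13.1 and 12.0 CPM at 1 week, against 6.04, 4.75, 4.36 and 4.58 CPM without delay. Its means differed 2.45-fold without overlap (log2 fold change 1.15, SE 0.12, limma adjusted p = 1.2e-05). Since this is bulk tissue, more cells of a type and more RNA per cell cannot be told apart for these or any other genes. The annotation places Hspb6 over Lin37 on the other strand, and Lin37 itself had a log2 fold change of 0.14 (limma adjusted p = 0.310). Proser3 also overlaps Hspb6 on the other strand and starts within 1000 bases of it. Proser3 is not in the table, so its tags could not be looked at.

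Markers of several cell types moved with these genes. All 6 astrocyte markers rose, with summed levels of 1807 to 2511 CPM at 1 week, against 506 to 575 CPM without delay. All 6 microglia markers rose as well (817 to 1199 CPM at 1 week, 206 to 229 CPM without delay), as did all 4 tested of the 6 markers of monocytes and macrophages, of which Ms4a7 passed the filter through the 1-week libraries alone and so had to differ (110 to 309 CPM at 1 week, 9.73 to 13.4 CPM without delay), where Ccr2 had 0.08 to 0.67 CPM at 1 week and 0 to 0.20 CPM without delay. In the vessel wall, 5 of 6 endothelial markers (195 to 231 CPM at 1 week, 122 to 137 CPM without delay) and 3 of 6 markers of smooth muscle and pericytes (179 to 229 CPM at 1 week, 129 to 173 CPM without delay) rose. The latter 3 were Pdgfrb, Rgs5 and Des. Acta2, Tagln and Myh11 were not called (log2 fold changes -0.09, 0.46 and -0.21). Of the fibroblast markers 5 of 6 rose (49.0 to 177 CPM at 1 week, 25.2 to 37.5 CPM without delay), and of the oligodendrocyte markers 4 of 6 (2200 to 3751 CPM at 1 week, 1382 to 3161 CPM without delay). Of 5 neuronal markers, 2 fell and 3 did not pass the test (4683 to 5135 CPM at 1 week, 5235 to 5997 CPM without delay). Of 3 tested ependymal markers 1 rose (9.43 to 15.5 CPM at 1 week, 6.14 to 10.9 CPM without delay). The untested Tmem212 was at 0 in all 1-week libraries and at 0 to 0.5 CPM without delay. None of 3 erythrocyte markers was called (287 to 4393 CPM at 1 week, 534 to 1306 CPM without delay). Their part in the differences of the chaperones was not tested.

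**Figure D3:**
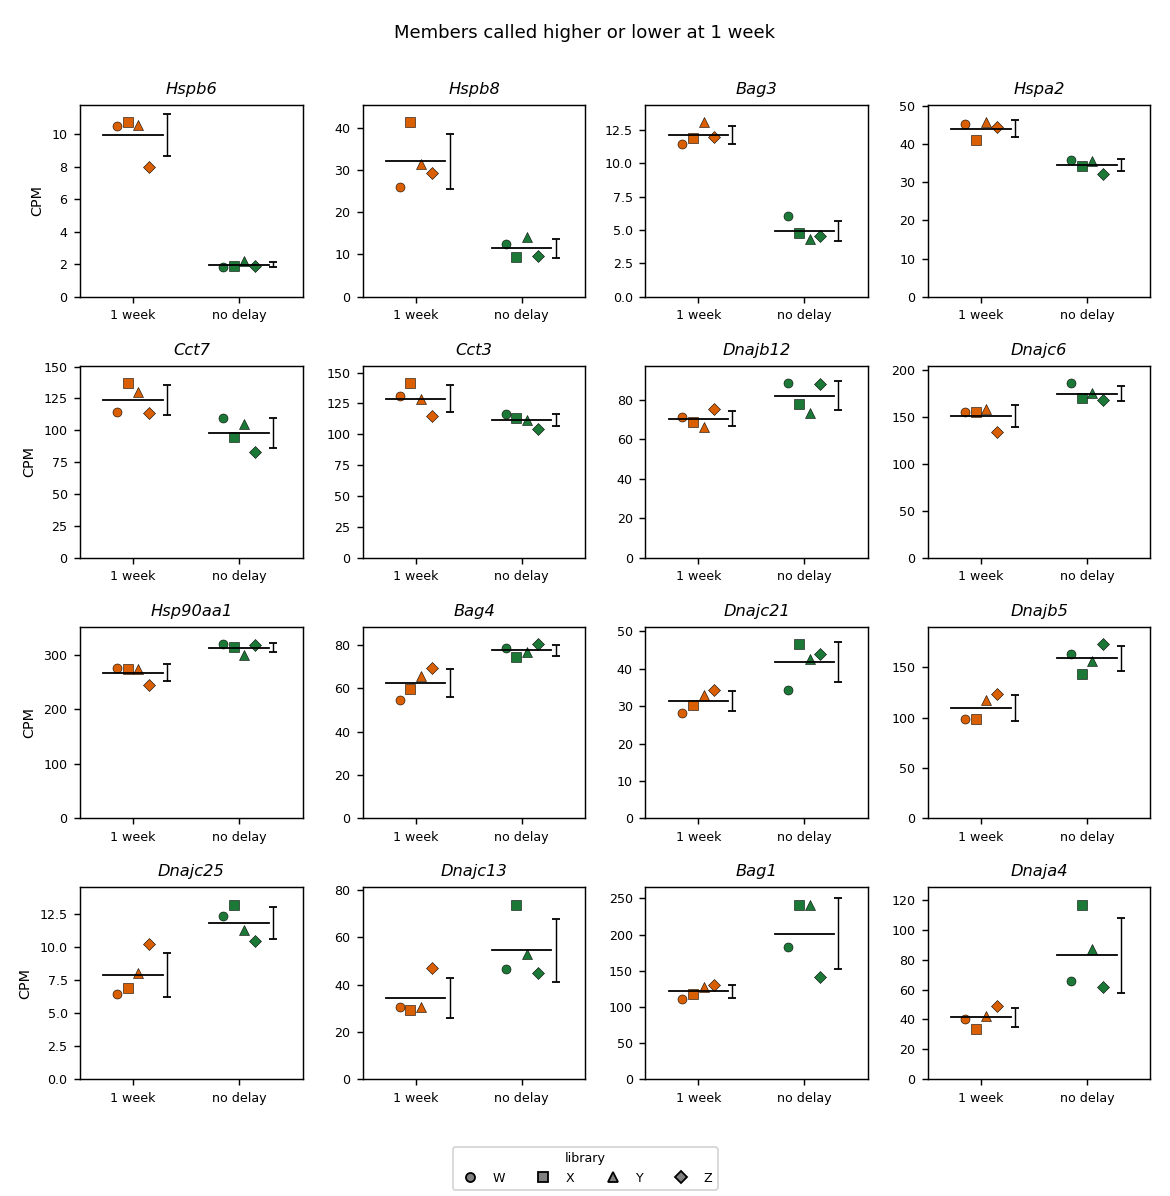
CPM in each library for the 16 called members, 1 week on the left and no delay on the right of each panel, with the group mean as a line and the SD as a bar (n = 4 each); marker shapes give the library letter. Hspb6, Hspb8, Bag3, Hspa2 and Cct7 do not overlap between the groups, nor do Dnaja4, Bag1, Dnajc25, Dnajb5, Bag4, Hsp90aa1 and Dnajc6, while Cct3, Dnajc13, Dnajc21 and Dnajb12 do.

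The promoters of these 3 genes are shown with those of Dnaja4, Hspa1b and Hspe1, because HSF1 acts through promoter elements and several of its classical targets were not called. Each sequence is a RefSeq window on GRCm38.p6 (another build than the mm9 of the deposited data), read 5′ to 3′ on the gene's strand over 300 bases, of which 250 lie before the annotated start. Capitals mark GAANNTTC, a facing pair of heat shock units that reads the same on both strands, and in Hspe1 a longer run of alternating units that overlaps it. Only windows that hold this pair are shown, and most members with a window lack it. Hspb6 lies at chr7:30553051-30553350 (plus strand), Hspb8 at chr5:116422815-116423114 (minus), Bag3 at chr7:128523333-128523632 (plus), Dnaja4 at chr9:54699309-54699608 (plus), Hspa1b at chr17:34959189-34959488 (minus) and Hspe1 at chr1:55087898-55088197 (plus).
Hspb6: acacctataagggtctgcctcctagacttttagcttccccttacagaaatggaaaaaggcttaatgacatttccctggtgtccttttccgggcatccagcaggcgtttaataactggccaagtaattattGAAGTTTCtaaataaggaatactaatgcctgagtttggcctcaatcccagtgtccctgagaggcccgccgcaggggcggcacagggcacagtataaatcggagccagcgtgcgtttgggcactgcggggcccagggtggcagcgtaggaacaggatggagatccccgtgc
Hspb8: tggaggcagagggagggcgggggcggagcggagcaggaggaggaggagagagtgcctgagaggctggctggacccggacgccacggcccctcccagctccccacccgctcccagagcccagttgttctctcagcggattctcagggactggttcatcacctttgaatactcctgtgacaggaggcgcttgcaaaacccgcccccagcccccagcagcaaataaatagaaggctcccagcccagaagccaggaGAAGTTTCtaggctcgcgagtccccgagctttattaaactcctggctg
Bag3: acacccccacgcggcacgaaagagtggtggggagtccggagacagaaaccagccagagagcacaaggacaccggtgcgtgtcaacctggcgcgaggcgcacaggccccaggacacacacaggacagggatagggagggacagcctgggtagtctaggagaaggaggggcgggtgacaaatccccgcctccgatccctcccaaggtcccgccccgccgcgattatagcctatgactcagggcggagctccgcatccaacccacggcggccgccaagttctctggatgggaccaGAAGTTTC
Dnaja4: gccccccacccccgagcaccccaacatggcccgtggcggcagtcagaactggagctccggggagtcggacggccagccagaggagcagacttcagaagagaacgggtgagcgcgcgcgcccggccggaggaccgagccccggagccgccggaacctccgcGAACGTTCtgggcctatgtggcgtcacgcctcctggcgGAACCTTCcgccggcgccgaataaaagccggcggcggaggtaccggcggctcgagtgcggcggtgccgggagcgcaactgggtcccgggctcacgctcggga
Hspa1b: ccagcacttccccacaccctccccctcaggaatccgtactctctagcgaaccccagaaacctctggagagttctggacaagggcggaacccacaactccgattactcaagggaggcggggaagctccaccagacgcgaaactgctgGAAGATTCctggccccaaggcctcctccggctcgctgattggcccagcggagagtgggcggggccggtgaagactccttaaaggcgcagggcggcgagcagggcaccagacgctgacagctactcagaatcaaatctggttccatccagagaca
Hspe1: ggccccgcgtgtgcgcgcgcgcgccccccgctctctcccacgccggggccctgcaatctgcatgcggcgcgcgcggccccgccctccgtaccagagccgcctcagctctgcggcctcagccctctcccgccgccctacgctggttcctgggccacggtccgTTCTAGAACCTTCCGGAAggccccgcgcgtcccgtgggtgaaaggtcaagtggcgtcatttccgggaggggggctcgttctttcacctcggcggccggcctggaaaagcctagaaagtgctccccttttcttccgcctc

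With the start base counted as 0, the pair began at -120 in Hspb6, at 2 in Hspb8 and at 42 in Bag3. It began at -90 and -52 in Dnaja4, which was lower at 1 week, and at -104 in Hspa1b, which was not called. Of the 83 members, 68 had a window, and 15 of these (22.1%) held the pair, against 7.0% of the 9819 tested genes with a window and 9.04% of all 27025 genes with one. The pair was present in 3 of 6 members called higher, in 1 of 8 called lower, in 11 of 49 not called and in 0 of 5 not tested. A run of 3 alternating units was found in Hspd1, Hspe1, Dnajb6 and Hsph1 (5.88% of the members, 0.621% of tested genes), and none of these 4 was called. The pair of Bag3 ends on the last base of its window, so whether a further unit follows it could not be seen. Hspd1 and Hspe1 hold the same run in their shared 285 bases, and Hspa1a and Hspa1b are near-copies, so the members' shares count each of these elements for both genes. A match is a run of letters in this window; binding was not measured.

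The regulators showed no called difference. Hsf1, the main stress-activated factor, had 25.6, 31.1, 26.0 and 30.2 CPM at 1 week, against 32, 27.4, 25.5 and 28 CPM without delay. Its mean was 28.2 ± 2.83 CPM at 1 week and 28.2 ± 2.70 CPM without delay (SD, n = 4 each), and its log2 fold change was -0.00 with a 95% interval of -0.21 to 0.21. Hsf2, a related factor that pairs with HSF1, averaged 42.7 ± 3.44 CPM at 1 week and 38.1 ± 2.39 CPM without delay (SD, n = 4 each; log2 fold change 0.16, 95% interval -0.01 to 0.34). Transcript levels do not show the state of HSF1, which is controlled after translation.

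Among the HSP70 genes 1 of 10 tested was called. Hspa2, a member best known from male germ cells and also made in brain, had 45.2, 41.0, 45.7 and 44.6 CPM at 1 week, against 35.8, 34.2, 35.6 and 32.3 CPM without delay. The groups did not overlap, and the log2 fold change was 0.35 (SE 0.07, limma adjusted p = 0.00231). The stress-inducible pair did not pass the test. Hspa1a had 13.3, 16.1, 15.4 and 19.6 CPM at 1 week, against 14.8, 19.7, 16.3 and 16.9 CPM without delay, and the libraries overlapped widely (log2 fold change -0.07, 95% interval -0.34 to 0.20). Hspa1b had 15.2, 23.6, 16.7 and 22.6 CPM at 1 week, against 19.5, 24.5, 16.0 and 20.4 CPM without delay (log2 fold change -0.05, 95% interval -0.38 to 0.29). Their promoter windows are identical at 296 of 300 positions and the genes are near-identical copies, so the split of reads between them is uncertain.

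Hspa8, Hspa5 and Hspa9, which are made at all times, had more tags than the inducible pair. Hspa8 (Hsc70), the housekeeping HSP70 that also uncoats clathrin vesicles, averaged 1583 ± 162 CPM at 1 week and 1500 ± 174 CPM without delay (SD, n = 4 each; log2 fold change 0.08, 95% interval -0.15 to 0.31). Hspa5 (BiP) of the endoplasmic reticulum (ER) averaged 203 ± 34.3 CPM at 1 week and 184 ± 30.6 CPM without delay (log2 fold change 0.14), and Hspa9 (mortalin) of mitochondria 195 ± 6.40 CPM at 1 week and 179 ± 13.8 CPM without delay (log2 fold change 0.12). Hspa13, an HSP70-like ATPase, had a log2 fold change of 0.24 (30.1 ± 3.12 CPM at 1 week, 25.3 ± 3.49 CPM without delay), and Hspa14, a ribosome-bound member, one of 0.11 (66.6 ± 3.66 CPM at 1 week, 61.7 ± 3.44 CPM without delay). Neither passed the test. The distant relatives Hspa12a (78.1 ± 8.49 CPM at 1 week, 88.2 ± 5.11 CPM without delay; log2 fold change -0.18) and Hspa12b, known from endothelium (9.83 ± 0.623 CPM at 1 week, 9.37 ± 1.04 CPM without delay; log2 fold change 0.07), were not called either.

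The HSP110 genes, exchange factors for HSP70, gave no call among 3. Hsph1 (HSP105), which is heat-inducible, had 362, 390, 344 and 322 CPM at 1 week, against 393, 447, 366 and 458 CPM without delay. Its log2 fold change was -0.23 with a 95% interval of -0.41 to -0.04 and a limma adjusted p of 0.0550. It was called lower with TMM scaling, median-of-ratios scaling, library weights, edgeR and DESeq2, and without the 1-week library X or the no-delay library Y (adjusted p between 0.00849 and 0.0443). Hspa4 (Apg-2) averaged 164 ± 5.63 CPM at 1 week and 163 ± 9.73 CPM without delay (log2 fold change 0.02), and Hspa4l (Apg-1) 176 ± 7.35 CPM at 1 week and 192 ± 8.11 CPM without delay (log2 fold change -0.13; SD, n = 4 each).

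Of the 3 HSP90 genes, the cytosolic pair did not share a call. Hsp90aa1, the more stress-responsive cytosolic form, had 275, 274, 274 and 245 CPM at 1 week, against 319, 314, 300 and 318 CPM without delay. All 1-week libraries were below all no-delay libraries (log2 fold change -0.23, SE 0.06, limma adjusted p = 0.0113). Hsp90ab1, the constitutive form, had 1415, 1655, 1591 and 1428 CPM at 1 week, against 1516, 1410, 1438 and 1430 CPM without delay, and was not called (log2 fold change 0.07, 95% interval -0.10 to 0.24). The ratio of Hsp90aa1 to Hsp90ab1 within a library was 0.166 to 0.194 at 1 week and 0.208 to 0.223 without delay, without overlap. The difference between the fold changes was not tested. Hsp90b1 (GRP94), the ER form, averaged 745 ± 49.4 CPM at 1 week and 690 ± 55.0 CPM without delay (SD, n = 4 each; log2 fold change 0.11), and its row lies within 5% of that of AC152453.1 in every library.

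**Figure D4:**
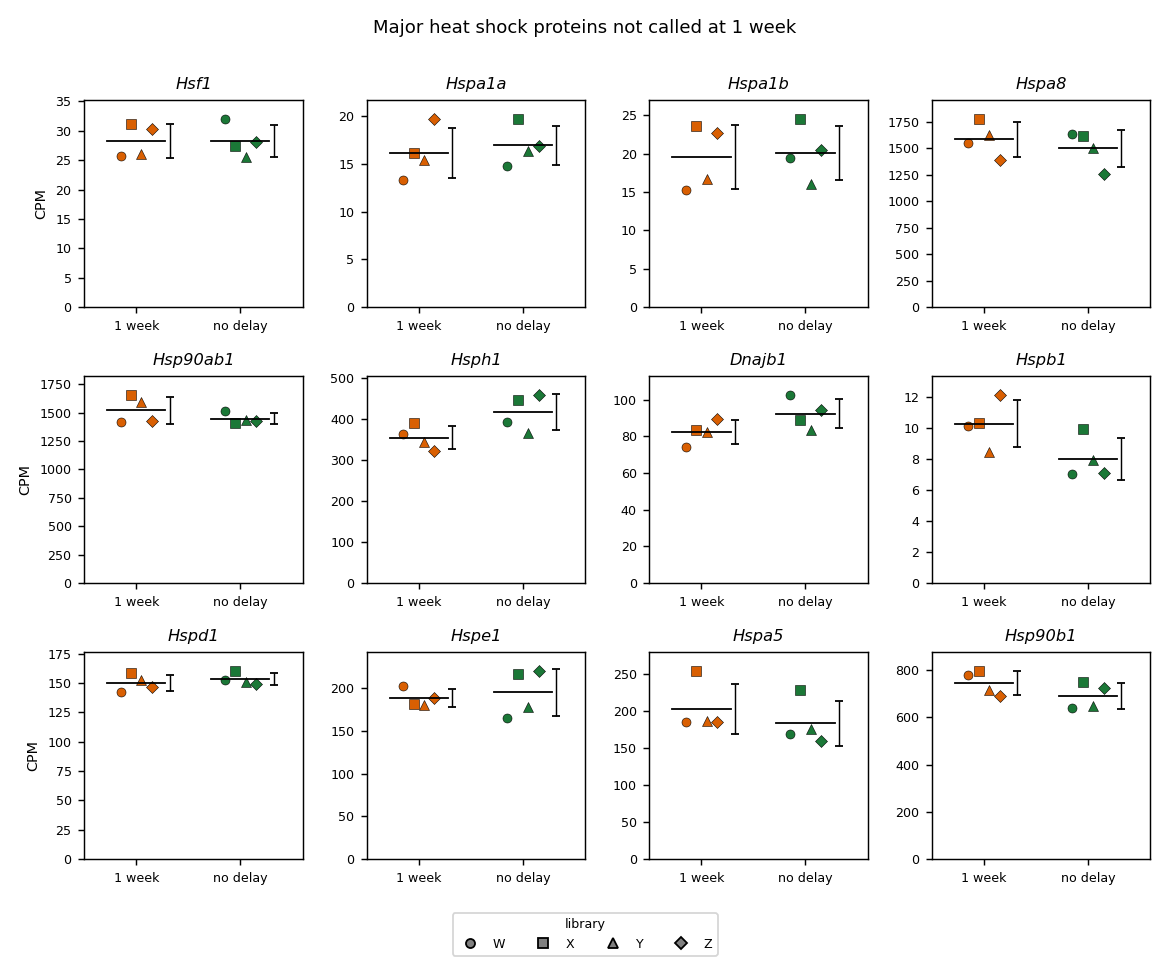
CPM in each library for 12 members that were not called (the factor Hsf1 and major heat shock proteins), 1 week on the left and no delay on the right of each panel, with the group mean as a line and the SD as a bar (n = 4 each); marker shapes give the library letter. The groups overlap in every panel, including Hspa1a, Hspa1b and Dnajb1.

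Of 38 J-domain genes tested, 7 were lower at 1 week, 0 were higher and 31 did not pass the test, beside 13.4% lower and 23.4% higher among all genes, with a median log2 fold change of -0.04. With TMM 13 were called lower, with the median of ratios 14, with edgeR 12 and with DESeq2 14, again with 0 higher. In the same order, 17.6%, 18.5%, 17.4% and 18.8% of all genes were called lower. With quantile normalization 5 were called lower and 0 higher, where 21.8% of all genes were called lower. Library weights and the setting without a filter each called 1 J-domain gene higher. So did leaving out the 1-week library W or Z or the no-delay library W. In class A, whose proteins carry a zinc-finger region and bind clients themselves, 1 of 4 was called. Dnaja4 had 40.6, 33.7, 42.2 and 49.3 CPM at 1 week, against 66.1, 117, 87.4 and 61.9 CPM without delay. The groups did not overlap, the 1-week mean was 0.499 of the no-delay mean, and the no-delay libraries spread more widely (log2 fold change -0.95, SE 0.17, limma adjusted p = 0.00104). Wdr61, which overlaps Dnaja4 on the other strand, had a log2 fold change of 0.02 (limma adjusted p = 0.902). The abundant cytosolic members Dnaja1 and Dnaja2 were not called. Dnaja1 averaged 355 ± 23.0 CPM at 1 week and 407 ± 32.5 CPM without delay (SD, n = 4 each; log2 fold change -0.20, limma adjusted p = 0.0551), and it was called lower under 7 of the 18 alternatives, including TMM, median-of-ratios, edgeR and DESeq2. The row of Dnaja1 lies within 5% of that of Mir207 in every library, so the same reads may serve both. Dnaja2 averaged 276 ± 12.1 CPM at 1 week and 283 ± 28.1 CPM without delay (log2 fold change -0.03). Within a library Dnaja4 stood to Dnaja1 as 0.0975 to 0.142 at 1 week and 0.138 to 0.291 without delay.

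In class B 2 of 10 tested genes were lower. Dnajb5 (Hsc40), a J-protein known to bind class II histone deacetylases, had 98.6, 98.3, 117 and 124 CPM at 1 week, against 163, 143, 156 and 173 CPM without delay. Each 1-week library was below each no-delay library (log2 fold change -0.54, SE 0.09, limma adjusted p = 4.8e-04). Dnajb12, an ER membrane protein named here beyond the naming rule because it completes the count, averaged 70.5 ± 3.91 CPM at 1 week and 82.1 ± 7.44 CPM without delay with overlapping libraries (SD, n = 4 each; log2 fold change -0.22, limma adjusted p = 0.0434). It lost its call with quantile normalization and when any 1 of 6 libraries was left out (W, X or Y at 1 week, W, X or Z without delay; adjusted p between 0.0503 and 0.123). Dnajb6, which keeps polyglutamine proteins from aggregating, averaged 359 ± 13.4 CPM at 1 week and 397 ± 27.3 CPM without delay and was not called (log2 fold change -0.14). Dnajb1, the classical heat-inducible HSP40, also named beyond the rule, had 73.9, 83.7, 82.2 and 89.5 CPM at 1 week, against 102, 89.0, 83.6 and 94.3 CPM without delay. Its libraries overlapped (log2 fold change -0.16, 95% interval -0.34 to 0.01), and it was called lower only with TMM, median-of-ratios, edgeR and DESeq2.

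In class C, a diverse group whose members mostly serve 1 compartment or 1 process, 4 of 24 genes were lower. Dnajc13 (RME-8), which works in endosomal sorting, had 30.3, 29.3, 30.4 and 46.9 CPM at 1 week, against 46.4, 73.8, 52.9 and 45.0 CPM without delay. The 1-week library Z stood at the level of the no-delay group, so the groups overlapped (log2 fold change -0.66, SE 0.17, limma adjusted p = 0.00914). Dnajc25 had 6.40, 6.87, 8.0 and 10.2 CPM at 1 week, against 12.3, 13.2, 11.3 and 10.4 CPM without delay (log2 fold change -0.54, SE 0.14, limma adjusted p = 0.00887). Its row is identical to that of Gm20503 in every library, so its reads cannot be assigned to either gene alone. Dnajc21, a factor in ribosome maturation, had 28.3, 30.4, 33.0 and 34.3 CPM at 1 week, against 34.2, 46.6, 42.6 and 44.1 CPM without delay (log2 fold change -0.40, SE 0.10, limma adjusted p = 0.00903), with overlap at 1 no-delay library.

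Dnajc6 (auxilin), which brings Hspa8 to clathrin-coated vesicles in neurons, had 155, 155, 159 and 133 CPM at 1 week, against 186, 170, 175 and 168 CPM without delay. It was lower without overlap (log2 fold change -0.22, SE 0.07, limma adjusted p = 0.0279). That call was lost with quantile normalization (adjusted p = 0.0619) and without the 1-week library Z (0.0611), the no-delay library W (0.0709) or the no-delay library Y (0.0562). Dnajc19, a part of the mitochondrial import motor, averaged 120 ± 3.27 CPM at 1 week and 112 ± 5.82 CPM without delay and was not called (SD, n = 4 each; log2 fold change 0.10). The other class C genes that were not called had log2 fold changes between -0.22 and 0.24.

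Of 6 small heat shock proteins tested, 2 were higher, 0 lower and 4 not called, beside 23.4% higher among all genes. Beside Hspb6 and Hspb8, Hspb1 (HSP25, the mouse form of HSP27), a stress-induced protein known from reactive astrocytes, had 10.2, 10.3, 8.43 and 12.1 CPM at 1 week, against 7.07, 9.97, 7.92 and 7.09 CPM without delay. The libraries overlapped (log2 fold change 0.32, 95% interval 0.03 to 0.62, limma adjusted p = 0.0846). Hspb1 was called higher without the 1-week library Y (adjusted p = 0.0497) or without the no-delay library X (0.0341), and not under the other 16 alternatives. Hspb2 averaged 1.59 ± 0.393 CPM at 1 week and 1.46 ± 0.442 CPM without delay (SD, n = 4 each; log2 fold change 0.08). It overlaps Cryab on the other strand. Hspb3 averaged 8.90 ± 1.23 CPM at 1 week and 8.07 ± 1.5 CPM without delay (log2 fold change 0.13). Both form a complex known from muscle. Hspb11 (IFT25), a part of the transport machinery of cilia, averaged 40.3 ± 1.19 CPM at 1 week and 43.6 ± 4.87 CPM without delay (log2 fold change -0.11). The ratio of Hspb8 to Hspb1 within a library was 2.42 to 3.98 at 1 week and 0.954 to 1.79 without delay, without overlap; the difference between their fold changes was not tested.

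The BAG genes moved in both directions, with 1 of 6 higher and 2 lower. Bag1, an exchange factor of HSP70 that leads clients to the proteasome, had 111, 118, 128 and 130 CPM at 1 week, against 183, 241, 241 and 141 CPM without delay. The groups did not overlap (log2 fold change -0.69, SE 0.14, limma adjusted p = 0.00252). Bag4 (SODD), a silencer of death receptors, had 54.6, 59.9, 65.4 and 69.4 CPM at 1 week, against 78.7, 74.4, 76.8 and 80.4 CPM without delay, again without overlap (log2 fold change -0.32, SE 0.08, limma adjusted p = 0.00704). The ratio of Bag3 to Bag1 within a library was 0.0924 to 0.104 at 1 week and 0.0181 to 0.0330 without delay. Bag1 starts within 1000 bases of Chmp5 on the other strand, and Chmp5 had a log2 fold change of 0.13 (limma adjusted p = 0.253). Bag2, an inhibitor of the ubiquitin ligase CHIP (14.8 ± 1.56 CPM at 1 week, 13 ± 2.07 CPM without delay; log2 fold change 0.19), Bag5, an exchange factor (67.0 ± 3.13 CPM at 1 week, 73.6 ± 3.83 CPM without delay; log2 fold change -0.13), and Bag6, which guides membrane proteins (175 ± 12.2 CPM at 1 week, 180 ± 8.16 CPM without delay; log2 fold change -0.04), were not called.

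Among the chaperonins, neither gene of the mitochondrial pair was called and 2 CCT subunits were higher. Hspd1 (HSP60) averaged 150 ± 6.94 CPM at 1 week and 153 ± 4.78 CPM without delay (SD, n = 4 each; log2 fold change -0.03, 95% interval -0.16 to 0.10). Its lid Hspe1 (HSP10) averaged 188 ± 10.4 CPM at 1 week and 195 ± 27.2 CPM without delay (log2 fold change -0.04, 95% interval -0.24 to 0.16). The pair is transcribed from 1 shared region on opposite strands, and their windows have 285 bases in common. Of 7 tested CCT subunits, which fold actin and tubulin, Cct7 had 115, 137, 130 and 113 CPM at 1 week, against 110, 94.7, 105 and 83.0 CPM without delay, without overlap (log2 fold change 0.34, SE 0.09, limma adjusted p = 0.0138). Cct3 had 131, 141, 128 and 115 CPM at 1 week, against 116, 113, 112 and 104 CPM without delay, with overlap (log2 fold change 0.21, SE 0.07, limma adjusted p = 0.0386). The call of Cct3 was lost with TMM, median-of-ratios, edgeR and DESeq2 and when any 1 of 6 libraries was left out (W, X or Y at 1 week, X, Y or Z without delay; adjusted p between 0.0679 and 0.145). Mean levels of the other subunits were 115 CPM at 1 week and 108 CPM without delay for Cct2, 147 CPM at 1 week and 144 CPM without delay for Cct4, 137 CPM at 1 week and 133 CPM without delay for Cct5, 148 CPM at 1 week and 159 CPM without delay for Cct6a, and 241 CPM at 1 week and 245 CPM without delay for Cct8, with log2 fold changes between -0.09 and 0.10.

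Grouped by compartment, none of 7 members of the ER lumen and none of 8 of the mitochondria was called, beside 36.8% of all genes. Dnajc3 of the ER list was called higher without the 1-week library W (limma adjusted p = 0.0433). The 7 ER members (Hspa5, Hsp90b1, Dnajb9, Dnajb11, Dnajc1, Dnajc3 and Dnajc10), targets or partners of the unfolded protein response, had log2 fold changes between 0.00 and 0.19, with summed levels of 1291 to 1471 CPM at 1 week and 1162 to 1354 CPM without delay. The 8 mitochondrial members had log2 fold changes between -0.10 and 0.12, with sums of 991 to 1013 CPM at 1 week and 935 to 1034 CPM without delay. Transcripts with mitochondrial genome symbols took 2.4% to 3.05% of CPM at 1 week and 3.0% to 5.38% without delay, whose part in these results was not tested.

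The 6 untested members were close to the limit of detection, where 3 reads, the upper limit that a count of 0 allows, equal 0.214 to 0.362 CPM (counting error only). Cct6b, a testis form of the chaperonin subunit, had 32 reads over the 1-week libraries and 20 over the no-delay libraries. Dnajb13, a protein of sperm tails and motile cilia, had 17 reads at 1 week and 2 without delay. It overlaps Ucp2 on the other strand, and whether tags were counted by strand is not known. Hspb7, known from heart, had 8 reads at 1 week and 2 without delay, and Hspb9, known from testis, 6 reads at 1 week and 5 without delay. Hspa1l and the pseudogene Hspa9-ps1 had 1 read at 1 week and 2 without delay each. Without the filter on low values Dnajb13 was called higher (limma adjusted p = 0.0402) and the other 5 were not, and at 2 reads in the no-delay libraries no fold is given.

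The chaperone machinery outside the symbol families was mostly not called. Of 15 HSP90 co-chaperones 2 were lower and 13 not called. Fkbp5 (FKBP51), a target of the glucocorticoid receptor, averaged 15.8 ± 3.05 CPM at 1 week and 24.0 ± 3.51 CPM without delay (SD, n = 4 each; log2 fold change -0.58, limma adjusted p = 0.00539). Ppp5c, a phosphatase bound to HSP90, averaged 148 ± 9.35 CPM at 1 week and 170 ± 11.8 CPM without delay (log2 fold change -0.19, limma adjusted p = 0.0495), a call that was lost under 11 of the 18 alternatives. None of 7 HSP70 partners was called, and the most abundant, St13 (Hip), averaged 274 ± 4.31 CPM at 1 week and 259 ± 16.0 CPM without delay. Of 9 chaperonin and prefoldin genes 1 was lower: Pfdn2 averaged 265 ± 21.3 CPM at 1 week and 321 ± 7.77 CPM without delay (log2 fold change -0.28, limma adjusted p = 0.00626).

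Of 6 other heat shock genes 1 was higher. Serpinh1 (HSP47), the collagen chaperone of the ER, had 14.3, 20.9, 13.9 and 16.9 CPM at 1 week, against 7.79, 8.6, 6.83 and 8.23 CPM without delay, without overlap (log2 fold change 0.97, SE 0.13, limma adjusted p = 1.4e-04). The fibroblast markers, among them 3 collagen genes, moved with it as given above, and their part was not tested. Of 12 immediate early genes, which are transcribed within minutes of a stimulus, 2 were higher, 2 lower and 8 not called. Atf3 averaged 6.09 ± 1.29 CPM at 1 week and 0.375 ± 0.181 CPM without delay (log2 fold change 2.36, limma adjusted p = 7.4e-07). Atf3 passed the filter through the 1-week libraries alone and so had to differ, and its log2 fold change lay between 1.20 and 3.98 over the alternatives. Fosb averaged 5.54 ± 3.33 CPM at 1 week and 10.9 ± 2.51 CPM without delay (log2 fold change -1.0, limma adjusted p = 0.0320), and Egr1 312 ± 63.9 CPM at 1 week and 497 ± 103 CPM without delay (log2 fold change -0.67, limma adjusted p = 0.00617). The call of Fosb was lost with DESeq2 (adjusted p = 0.0941) and without the 1-week library X or Y or the no-delay library W, X or Z (0.0683 to 0.0830).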

How the data were processed

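Expression was measured by CAGE in 4 libraries from tissue taken 1 week after the lesion and 4 from tissue taken without delay. The authors deposited 1 table of CPM values (tags of a gene symbol scaled to a common library total). The submitters' processing notes name BWA 0.5.9 and mm9. How tags were assigned to genes, with or without strand, is not given in the sources used here. By GENCODE M21, 23 members overlap, on the other strand, a gene that is also in the deposited table. Further members overlap only genes that are not in it, whose tags could not be looked at. Columns carry a group and tags but no replicate number. The labels do not tie each library to a separate mouse, so p-values reflect the spread among these libraries, which may be technical. All deposited CPM values came out as whole reads within 0.1 reads, which allowed count tests as alternatives.

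Fold changes are on log2(CPM + 1), which understates changes of genes with few reads. The 14718 genes with 1 CPM or more in at least 4 libraries were tested with limma 3.58.1 (R 4.3.3), 2-sided; no tested member passed this filter through 1 group alone. The alternatives were pseudocounts of 0.25 and 4, a filter of 5 CPM or none, TMM, median-of-ratios and quantile scaling, library weights, edgeR 4.0.16, DESeq2 1.42.0 and leaving out each library; a block on the 6-base tag was added after seeing the data. The procedure was tested on simulated data. Named genes are all members outside the J-domain families; J-domain genes called with a log2 fold change of at least 0.3 in size and the 2 most abundant of each class; and, of each list outside the members, up to 3 called genes with the largest change or else the most abundant. Members and lists were chosen with earlier results of these data known. One symbol that matches the name patterns is not reported here.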

Additional observations from a re-analysis of the deposited data

Results flagged for a closer look

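In each group of 4 libraries, a member's highest or lowest library was set against the gap to its nearest neighbour, divided by the range of the group (Dixon's critical value 0.829). Of 154 groups examined, 13 exceeded it, and chance gives about 1 in 20. At 1 week, the library Z was lowest for Cct4 (142.03 CPM), Dnajc10 (82.74 CPM), Dnajc6 (133.39 CPM), Hsp90aa1 (244.72 CPM) and Hspb6 (7.98 CPM), and highest for Dnajc13 (46.91 CPM). The 1-week library W was lowest for Dnajb9 (104.48 CPM), and the 1-week library X was highest for Hspa5 (254.27 CPM), the ER chaperone BiP. Without delay, the library W was highest for Dnajc11 (79.3 CPM) and Dnajc9 (35.75 CPM). The no-delay library X was lowest for Dnajb2 (81.57 CPM) and Dnajc19 (103.6 CPM), and the no-delay library Z was lowest for Dnajc17 (8.65 CPM). Of these genes, Hspb6, Hsp90aa1, Dnajc6 and Dnajc13 were called. Without the 1-week library Z the calls of Hspb6, Hsp90aa1 and Dnajc13 held, and that of Dnajc6 did not.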

How the results depend on the processing

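No paired analysis was possible because the columns carry no replicate number. Their 6-base tags are shared between the groups, but nothing ties a tag to an animal or a batch, and deviations of libraries with the same tag correlated at -0.02, -0.03, 0.04 and 0.18 over genes (letters W to Z). With that tag as a block, chosen after seeing the data, 7 members were called higher and 12 lower, and Dnajc3 (higher), Dnajb14 and Hsph1 (lower) were added. This block called 24.7% of the members, against 37.2% of all genes, and called 15.6% of the members lower, against 13.5% of all genes. A second tag differs between the groups, so that it and the group cannot be told apart. Over the other 18 alternatives, 5 of 6 higher calls (not Cct3), 8 of 10 lower calls (not Dnajb12 and Dnajc6) and 46 of 61 members not called kept their call, and no call reversed. The number of members called higher lay between 5 and 8. The number of members called lower moved to 20 with TMM, 21 with median-of-ratios scaling, 19 with edgeR and 21 with DESeq2. It lay between 9 and 11 when 1 library was left out (11.7% to 14.3% of the members, against 9.71% to 14.6% of all genes). It was 8 with quantile normalization (10.4% of the members, against 21.8% of all genes) and 12 with library weights (15.6%, against 15.3%). Hsph1, Dnaja1, Dnajb1, Dnajb14, Dnajc27, Hspa12a, Hspa4l and Bag5 were called lower under all 4 of TMM, median-of-ratios scaling, edgeR and DESeq2. Over all genes tested, the median log2 fold change was 0.06 as deposited, 0.01 with TMM, -0.00 with the median of ratios and -0.04 after quantile normalization. The number of all genes called lower, 1971 as deposited, was 2592 with TMM, 2721 with the median of ratios, 2567 with edgeR, 2762 with DESeq2, 3211 with quantile normalization and 1429 to 2142 with 1 library left out. The log2 fold change of Hspb6 ran between 1.22 with a pseudocount of 4 and 2.28, always called. The cause was not tested. Depth limits levels under 0.214 to 0.362 CPM.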

Other observations

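Seen after the promoter windows had been read: the letters of the heat shock pair are the same, GAAGTTTC, in Hspb6, Hspb8 and Bag3. On either strand this run is present in 5 of 68 members with a window (7.35%: Bag3, Cct2, Hspb1, Hspb6 and Hspb8), against 1.32% of tested genes with a window. Cct2 and Hspb1 hold it without being called. The letters were taken from Hspb6, Hspb8 and Bag3 after the values were known, so these genes had to hold them. That choice raises the share of the members, which is therefore not comparable with that of tested genes, and no test was made.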
